A study of Homo sapiens with 12 samples.

Results

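The cytosolic heat shock chaperones were followed at the RNA level in the established human melanoma line A375 after treatment with the compound DdBIC, with hemin or with both. The group was defined by gene name as HSPA1A, HSPA1B, HSPA8, DNAJB1, HSPH1, BAG3, HSP90AA1, HSP90AB1, HSPB1 and HSF1, and all 10 genes were found among the 20263 genes of the deposited table. All 10 passed edgeR's filter on low counts, which kept 14287 genes. The cells of every library were labelled as wild type in genotype. The untreated cells formed the Ctrl group, and the others received DdBIC (written DBIC in the labels), hemin, or DdBIC together with hemin, with 3 libraries in each of the 4 groups. DdBIC is a dodecyl ester of a benzimidazole carboxylic acid that the study selected as an inducer of pyroptosis through GSDMC, and hemin is an iron porphyrin that supplies cells with heme. The stated reason for adding hemin was its inhibition of the cell death caused by the compound, and the comparisons below follow the chaperone genes with the compound alone, with hemin alone and with the combination. The doses and durations for the sequenced cells are not given in the sources used here, and nothing in the labels says that the libraries of a group came from separate cultures, so the p-values measure only the spread between these libraries.

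Heat shock chaperones bind unfolded or partly folded proteins in the cytosol and help them fold, hold them in solution or pass them on for degradation. HSP70 proteins bind exposed stretches of a client with the energy of ATP, J-domain proteins such as DNAJB1 bring clients to them, exchange factors such as HSPH1 and BAG3 reset the cycle, and HSP90 proteins take over clients that are close to their native form. In resting cells HSF1, the main transcription factor of the heat shock response, is held inactive by chaperones, and on proteotoxic stress it forms trimers that bind heat shock elements, runs of inverted GAA and TTC units, upstream of chaperone genes.

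The total count per library was 37951275 to 44358912, and replicate libraries correlated at 0.985 to 0.988 (Pearson, across genes, on log2 CPM, the count scaled to a common library size). HMOX1, a heme-induced gene used here as a check of the hemin labels, was at 7.26 to 9.19 CPM in the 6 libraries without hemin and at 61.9 to 188 CPM in the 6 libraries with it. Of the melanoma markers, SOX10 was at 548 to 769 CPM, MITF at 8.31 to 21.5, S100B at 6.59 to 12.7 and S100A1 at 3.37 to 6.60, and the pigment genes PMEL, MLANA, TYR and DCT were at most 1.11 CPM. Of the leukocyte markers, PTPRC was at 0 in all libraries, CD3E was at most 0.052 CPM, and CD68, a lysosomal protein gene, was at 20.2 to 29.7 CPM. The endothelial markers PECAM1, CDH5 and VWF were at most 0.99 CPM, and of the keratinocyte markers KRT1 was at 0, KRT5 at most 0.025 CPM and KRT14 at 2.62 to 3.92 CPM. By group, CDH5 was at 0 to 0.35 CPM without DdBIC and at 0.54 to 0.75 CPM with it. SOX10 was at 617 to 644 CPM in Ctrl, 711 to 769 with DdBIC, 548 to 551 under hemin and 558 to 642 with the combination. The part of these shifts in the chaperone levels was not tested. Genes of the mitochondrial genome took 2.42% to 2.99% of the counts with DdBIC and 2.90% to 3.43% in the other libraries. Levels are bulk averages, so a change in the share of cells and a change in RNA per cell cannot be told apart.

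DdBIC without hemin raised some chaperone genes and lowered others. DNAJB1 rose most, to 1.98 times its Ctrl level, HSPA1A and HSPA1B rose to 1.40 and 1.39 times, HSPA8 and HSPH1 rose by smaller steps, and both HSP90 genes fell. Of the 10 genes, 5 were higher and 2 lower at an adjusted p under 0.05 (edgeR's quasi-likelihood test, Benjamini-Hochberg over all genes tested), against 37.2% of all genes tested, 20.0% higher and 17.2% lower. The median log2 fold change of the 10 was 0.10, beside -0.0082 over all genes. Over all genes, 2859 were higher and 2451 lower, and with upper-quartile normalization in place of TMM the split was 2310 and 3472, with the median of all genes at -0.069. In 5 genes the DdBIC libraries lay above all Ctrl libraries and in 2 below them, where 25.9% and 24.1% of all genes did so. On TPM, the authors' length-scaled values, 6 genes lay above, HSF1 among them, and 2 below, where 24.6% and 21.7% of all genes did. All 7 calls had the same direction with upper-quartile normalization, and 6 of them passed the threshold.

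Hemin alone moved none of the 10 genes past the threshold, where 4.06% of all genes passed, 1.47% higher and 2.59% lower. By edgeR 4 of the 10 had an unadjusted p under 0.05, and the share of all genes under that level was not computed. DESeq2 called 1 (BAG3), where it called 6.17% of all genes. Limma on log2 TPM, the authors' length-scaled values, called 0, where it called 2.25%. HSPA8 and DNAJB1 were higher and HSPH1 and BAG3 lower with no overlap between the Hemin and Ctrl libraries, and over all genes such separation was seen in 12.1% upward and 12.9% downward. On TPM, HSPA8 and DNAJB1 were higher and HSP90AA1 and BAG3 lower without overlap, where 9.44% and 13.3% of all genes were so. HSPH1 overlapped on that scale.

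Adding hemin to DdBIC raised HSPA8, HSP90AA1 and HSP90AB1 and lowered DNAJB1 and HSPH1 relative to DdBIC alone, which is 5 of 10 genes where 31.9% of all genes were called, 13.5% higher and 18.4% lower. These were also the genes whose libraries did not overlap, 3 upward and 2 downward, where 19.8% and 24.4% of all genes were so. The HSPA1A and HSPA1B levels in that comparison did not pass the threshold. Over all genes 1933 were higher and 2626 lower in this comparison, and 2948 and 2032 with upper-quartile normalization. Relative to hemin alone, the combination had 4 genes higher and 0 lower, where 6.80% of all genes were called, 3.71% higher and 3.09% lower. These 4 were HSPA1A, HSPA1B, HSPA8 and HSP90AA1. With only these groups fitted 1 was called, and without Hemin 2 or without DdBIC+Hemin 1 the count was 2. The libraries of the combination lay above all hemin libraries in 8 of the 10 genes, where 13.2% of all genes did. On the deposited TPM they did so in 5, where 9.62% of all genes did, and HSF1, HSPH1 and HSP90AB1 overlapped. Against Ctrl, which shares its libraries with the other comparisons, the same 4 genes were higher and 0 lower, where 12.4% of all genes were called, 5.66% higher and 6.74% lower. Libraries without overlap against Ctrl were seen in 6 genes upward and 0 downward, where 15.3% and 15.8% of all genes had them, and on TPM in 5 and 0, where 10.3% and 18.5% did. With library size alone as the scaling, the higher and lower counts over all genes went from 530 and 441 to 421 and 575 against hemin, and from 808 and 963 to 646 and 1230 against Ctrl.

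The effect of DdBIC with hemin minus its effect without hemin was tested as an interaction. It passed the threshold for DNAJB1, downward, and for HSP90AA1 and HSP90AB1, upward, which is 3 of 10 genes where 16.6% of all genes were called, 6.40% higher and 10.2% lower. With upper-quartile normalization the split over all genes went from 914 higher and 1462 lower to 1497 and 1203. For the 3 HSP70 genes the interaction did not pass the threshold, and its 95% intervals on the log2 scale were -0.31 to 0.24 for HSPA1A, -0.30 to 0.21 for HSPA1B and -0.061 to 0.16 for HSPA8.

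**Figure D1:**
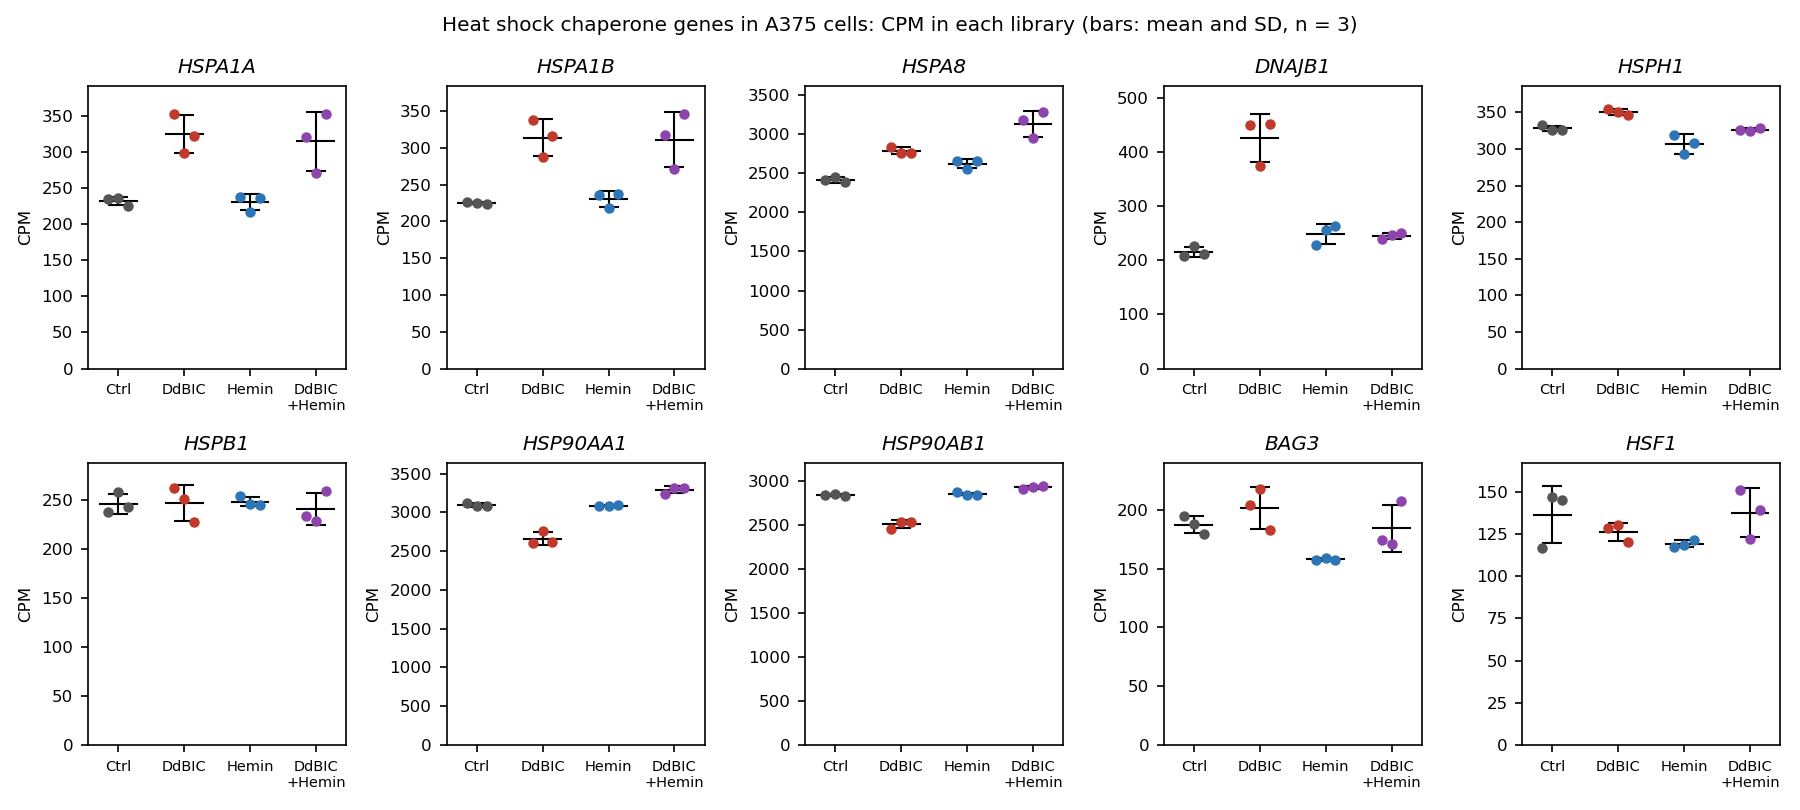
TMM-scaled CPM (y axes starting at 0) of the 10 chaperone genes in each library of the 4 groups (x axis), with points for libraries and bars for the mean and SD of 3. DNAJB1 stood at 374 to 452 CPM in the DdBIC libraries and at 208 to 263 CPM in all others, and the HSP90 genes were lowest in the DdBIC libraries.

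**Figure D2:**
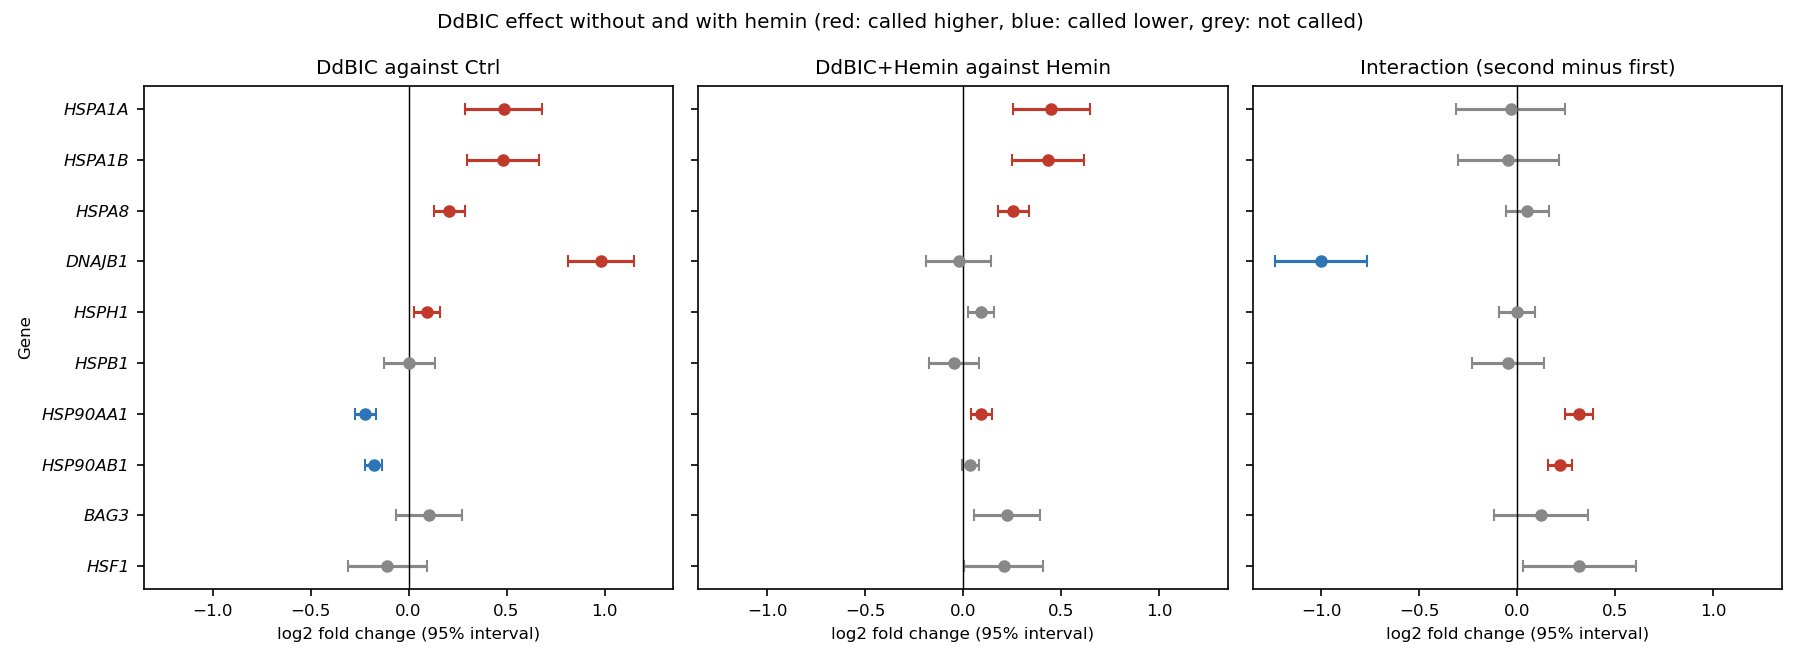
Log2 fold change (x axis, with its 95% interval) of each gene (y axis) for DdBIC against Ctrl, for DdBIC with hemin against hemin, and for the difference of these effects, with color for the edgeR call. DNAJB1 lay at 0.98 without hemin and at -0.021 with hemin, while HSPA1A lay at 0.49 and 0.45.

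HSPA1A (ENSG00000204389, chromosome 6, 31815464 to 31817946, plus strand, GRCh38) and HSPA1B (ENSG00000204388, chromosome 6, 31827735 to 31830255, plus strand) encode the stress-inducible HSP70 proteins and are near-identical copies. In GENCODE 29 transcripts, 67.3% of the 100-base windows of HSPA1A also occurred in HSPA1B, and 68.8% of those of HSPA1B in HSPA1A, so their reads could be split between them in a way the counting decided. The HSPA1A count was 0.997 to 1.05 times the HSPA1B count in all 12 libraries, and the values of the pair are not independent. The sequence upstream of their starts is shown because both genes rose together. The windows of 250 bases before the RefSeq start were 93.6% identical, with 14 mismatches and 2 gaps. Each is printed 5′ to 3′ from RefSeq (GRCh38.p14) as far as the nearest exon of the gene in GENCODE 29, with capitals for heat shock units in either of the pair forms GAANNTTC and TTCNNGAA, which together cover both strands.
HSPA1A, chr6:31815293-31815463, plus strand: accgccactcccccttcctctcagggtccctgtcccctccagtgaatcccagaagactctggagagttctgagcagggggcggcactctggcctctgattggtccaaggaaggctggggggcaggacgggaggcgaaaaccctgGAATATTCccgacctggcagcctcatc
HSPA1B, chr6:31827488-31827734, plus strand: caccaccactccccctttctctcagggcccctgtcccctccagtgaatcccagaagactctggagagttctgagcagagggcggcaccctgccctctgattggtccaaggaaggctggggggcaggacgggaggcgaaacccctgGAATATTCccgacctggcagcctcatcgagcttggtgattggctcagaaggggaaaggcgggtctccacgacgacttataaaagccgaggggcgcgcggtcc

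HSPA1A was at 235, 236 and 225 CPM in the Ctrl libraries, at 353, 299.8 and 323 CPM with DdBIC, at 238, 218 and 237 CPM under hemin and at 322, 272 and 353 CPM with the combination. All 6 libraries given DdBIC lay above all 6 libraries without it. The log2 fold change of DdBIC against Ctrl was 0.49 (SE 0.088, edgeR adjusted p = 0.0016), and that of the combination against hemin was 0.45 (0.088, edgeR adjusted p = 0.013). The latter was no longer called when only these groups were fitted (edgeR adjusted p = 0.075, and 0.067 for HSPA1B) or when the Hemin 2 or the DdBIC+Hemin 1 library was left out. HSPA1B had 227, 225 and 224 CPM in Ctrl, 337, 287 and 317 CPM with DdBIC, 236, 218 and 237 CPM under hemin, and 317, 271 and 345 CPM with the combination. The groups separated in the same way as for HSPA1A, with log2 fold changes of 0.48 (SE 0.082, edgeR adjusted p = 0.0011) without hemin and 0.43 (0.082, edgeR adjusted p = 0.011) with it. Between the combination and DdBIC alone the libraries of both genes overlapped, and the 95% intervals of the difference were -0.24 to 0.15 for HSPA1A and -0.19 to 0.17 for HSPA1B on the log2 scale. With the counts of the pair summed as 1 gene, the calls with DdBIC against Ctrl were kept.

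HSPA8 (ENSG00000109971, chromosome 11, 123057489 to 123063230, minus strand) encodes HSC70, the constitutive HSP70 of the cytosol, and no 100-base window of it occurred in another gene's transcripts. HSPA8 overlaps 3 snoRNA genes on its own strand, SNORD14C, SNORD14D and SNORD14E. The window search could not register transcripts shorter than 100 bases, and the lengths of these snoRNAs were not checked. Its level was 2410.1, 2457 and 2386 CPM in Ctrl, 2844, 2767 and 2767 CPM with DdBIC, 2659.7, 2558 and 2658 CPM under hemin, and 3179, 2952 and 3282 CPM with the combination. The groups did not overlap, in the order Ctrl, hemin, DdBIC and the combination. The log2 fold change was 0.21 for DdBIC against Ctrl (SE 0.035, edgeR adjusted p = 8.0e-04), 0.26 for the combination against hemin (0.035, edgeR adjusted p = 0.0014) and 0.17 for the combination against DdBIC (0.035, edgeR adjusted p = 0.0039). The step with hemin alone was 0.12 (SE 0.035, edgeR adjusted p = 0.096), and it passed the threshold when only Hemin and Ctrl were fitted (edgeR adjusted p = 0.036). The combination stood 0.38 above Ctrl on the log2 scale (SE 0.035, edgeR adjusted p = 5.4e-05).

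DNAJB1 (ENSG00000132002, chromosome 19, 14514770 to 14529770, minus strand) encodes HSP40, the J-domain partner that delivers clients to HSP70. Its upstream window is shown because DNAJB1 had the largest change of the 10 genes. RefSeq gives 3 starts for it, and only the window before the 14518397 start held paired heat shock units, as 2 separate pairs at 77 to 70 and 47 to 40 bases before the start.
DNAJB1, chr19:14518421-14518647, minus strand: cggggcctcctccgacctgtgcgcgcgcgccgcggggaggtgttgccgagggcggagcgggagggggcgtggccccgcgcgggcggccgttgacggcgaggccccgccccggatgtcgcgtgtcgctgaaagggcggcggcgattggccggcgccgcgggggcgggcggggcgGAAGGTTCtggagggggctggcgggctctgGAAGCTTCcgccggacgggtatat

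DNAJB1 was at 208, 227 and 212 CPM in Ctrl and at 451, 374 and 452 CPM with DdBIC. It was at 228, 256 and 263 CPM under hemin and at 239, 246 and 251 CPM with the combination. The 3 DdBIC libraries lay above the other 9, while the libraries with hemin and with both overlapped. The log2 fold change of DdBIC against Ctrl was 0.98 (SE 0.075, 95% interval 0.82 to 1.15, edgeR adjusted p = 3.2e-06), and 4.12% of all genes tested had a higher one. Adding hemin lowered DNAJB1, with a log2 fold change of -0.79 (SE 0.075, edgeR adjusted p = 2.2e-05), to 0.58 times its level with DdBIC alone. With hemin present DdBIC changed it by -0.021 (95% interval -0.19 to 0.14, edgeR adjusted p = 0.92), and the interaction was -1.0035 (SE 0.11, edgeR adjusted p = 1.2e-04). The combination stood 0.19 above Ctrl (95% interval 0.021 to 0.35, edgeR adjusted p = 0.14), with no overlap of the libraries, and it passed the threshold when only those groups were fitted (edgeR adjusted p = 0.034). The DdBIC 2 library had the lowest DNAJB1, HSPA1A and HSPA1B of its group and also the highest share of mitochondrial counts in it, 2.99% against 2.50% and 2.42%, and the part of that share in the result was not tested. Without that library the DdBIC effect was 1.06 for DNAJB1 (edgeR adjusted p = 4.4e-07) and 0.54 for HSPA1A and HSPA1B on the log2 scale. DNAJB1 overlaps TECR on the opposite strand, and 2.51% of its 100-base windows occurred there. HSPA1B overlaps a processed transcript on its own strand, in which 33.9% of its windows and 29.4% of those of HSPA1A occurred. HSP90AA1 overlaps WDR20 on the opposite strand (1.71%) and HSF1 overlaps DGAT1 (0.635%), and the strand setting of the counting is not given in the sources used here.

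HSPH1 (ENSG00000120694, chromosome 13, 31134974 to 31162388, minus strand) encodes HSP110, a nucleotide exchange factor for HSP70. It had 332, 326 and 326 CPM in Ctrl, 354, 350.0 and 346 CPM with DdBIC, 319, 292 and 307 CPM under hemin, and 326, 325 and 329 CPM with the combination. In CPM the DdBIC libraries lay above all others and the hemin libraries below all others, by margins of a few percent. On TPM the hemin libraries, at 160 to 171, overlapped Ctrl, at 162 to 178, and the combination, at 161 to 173. The HSPH1 count per FPKM, also a length-scaled value, was 1.11 times that of the lowest library in Ctrl 2 and in DdBIC+Hemin 3. The log2 fold change was 0.094 for DdBIC against Ctrl (SE 0.030, edgeR adjusted p = 0.028) and -0.10 for the combination against DdBIC (0.030, edgeR adjusted p = 0.023). Both calls were lost with upper-quartile normalization (0.033, adjusted p = 0.43, and -0.040, adjusted p = 0.36, edgeR) and each in 4 of the 12 fits that left out 1 library. The former was also lost with library size only (edgeR adjusted p = 0.085) and the latter with only those groups fitted (edgeR adjusted p = 0.062). By limma on log2 TPM the former difference was 0.14 and the latter -0.18. The HSPH1 interaction was -0.11 on that scale, beside -0.0025 from counts. BAG3 (ENSG00000151929, chromosome 10, 119651370 to 119677819, plus strand) encodes a co-chaperone that links HSP70 to autophagy of its clients. BAG3 was at 195, 188 and 179.7 CPM in Ctrl, at 204, 218 and 182 CPM with DdBIC, at 157, 159 and 157 CPM under hemin, and at 174, 171 and 207 CPM with the combination. The hemin libraries were below all other libraries, and the remaining groups overlapped. Hemin against Ctrl gave a log2 fold change of -0.25 (95% interval -0.42 to -0.079, edgeR adjusted p = 0.11), which DESeq2 called (adjusted p = 0.038), as did edgeR when only these groups were fitted (adjusted p = 0.011). DdBIC against Ctrl gave 0.10 (95% interval -0.064 to 0.27, edgeR adjusted p = 0.32), 0.044 without DdBIC 2 and 0.17 without DdBIC 3.

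HSP90AA1 (ENSG00000080824, chromosome 14, 102080738 to 102139699, minus strand) and HSP90AB1 (ENSG00000096384, chromosome 6, 44246166 to 44253888, plus strand) encode the stress-responsive and the constitutive HSP90 of the cytosol. HSP90AA1 was at 3125, 3089 and 3082 CPM in Ctrl, at 2605, 2754 and 2622 CPM with DdBIC, at 3078, 3085 and 3096 CPM under hemin, and at 3243, 3316 and 3321 CPM with the combination. The DdBIC libraries were the lowest 3 of the 12, the combination was the highest, and hemin overlapped Ctrl. DdBIC lowered HSP90AA1, with a log2 fold change of -0.22 (SE 0.023, edgeR adjusted p = 2.7e-05), and adding hemin raised it by 0.31 (0.023, edgeR adjusted p = 3.0e-06). The interaction was 0.31 (SE 0.033, edgeR adjusted p = 9.0e-05). The rises of the combination over hemin, 0.094 (edgeR adjusted p = 0.037), and over Ctrl, 0.088 (edgeR adjusted p = 0.033), were lost in 14 and 12 of the 20 alternatives, among them limma on log2 TPM.

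HSP90AB1 was at 2849, 2852 and 2837 CPM in Ctrl, at 2459, 2542 and 2543 CPM with DdBIC, at 2874, 2843 and 2849.6 CPM under hemin, and at 2907, 2936 and 2948 CPM with the combination. Its DdBIC libraries were likewise the lowest and those of the combination the highest. The log2 fold change was -0.18 for DdBIC against Ctrl (SE 0.019, edgeR adjusted p = 3.0e-05) and 0.22 for the combination against DdBIC (0.019, edgeR adjusted p = 8.5e-06). The interaction was 0.22 (SE 0.027, edgeR adjusted p = 3.0e-04), while the combination differed from hemin by 0.037 (95% interval -0.0050 to 0.080, edgeR adjusted p = 0.31). For DNAJB1, HSP90AA1 and HSP90AB1, the calls of DdBIC against Ctrl, of the combination against DdBIC and of the interaction were kept in every alternative fit at the adjusted p threshold, and a minimum log2 change of 1 left only the DNAJB1 interaction called. The upstream sequence of HSP90AB1 is shown because it holds 2 runs of 3 units in 1 window, while the gene fell with DdBIC. RefSeq gives 3 starts, and only the window before the 44247943 start held heat shock units in pairs or runs.
HSP90AB1, chr6:44247693-44247865, plus strand: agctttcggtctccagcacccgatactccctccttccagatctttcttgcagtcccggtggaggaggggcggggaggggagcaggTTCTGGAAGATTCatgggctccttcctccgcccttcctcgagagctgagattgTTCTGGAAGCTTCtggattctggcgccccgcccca

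Across the group, 14 RefSeq windows of 9 genes were searched for runs of 3 units (GAANNTTCNNGAA or its reverse complement TTCNNGAANNTTC) and for pairs of units, which any run of 3 also contains. HSF1 was left out of this search, so the counts of member windows and genes cover the other 9 members only. Whether the sequence upstream of HSF1 holds such units was not tested. Runs of 3 occurred in HSPA8 (GAAAGTTCCAGAA and TTCTGGAAGGTTC), HSP90AA1 (TTCCGGAAGGTTC) and HSP90AB1 (TTCTGGAAGATTC and TTCTGGAAGCTTC), whereas 0.441% of the 35116 windows of all genes held such a run. Counted by window, 3 of the 14 member windows held a run of 3. Pairs occurred in 7 of the 14 windows, which belong to 7 genes, and in 11.6% of all windows. HSPA1A, HSPA1B, DNAJB1 and HSPB1 held pairs only, and the windows of HSPH1 and BAG3 held neither form. The genes with runs of 3 thus included HSPA8, which rose with DdBIC, and the HSP90 genes, which fell. These are matches of letters in a fixed window and were not tested as binding sites.

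HSPB1 (ENSG00000106211, chromosome 7, 76302544 to 76304295, plus strand) encodes HSP27, a small heat shock protein that holds unfolded clients without ATP. It ranged from 227 to 262 CPM over all 12 libraries, and the groups overlapped in every comparison. DdBIC against Ctrl gave a log2 fold change of 0.0035 (95% interval -0.13 to 0.13, edgeR adjusted p = 0.97), and the combination against DdBIC gave -0.036 (95% interval -0.16 to 0.093, edgeR adjusted p = 0.69).

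HSF1 (ENSG00000185122, chromosome 8, 144291591 to 144314722, plus strand) gave different pictures on the deposited scales. From counts it was at 117, 147 and 145 CPM in Ctrl, at 129, 131 and 120.4 CPM with DdBIC, at 118, 118 and 122 CPM under hemin, and at 151, 122 and 139 CPM with the combination. From the deposited TPM it was at 175, 167 and 167 in Ctrl, at 189, 199 and 175 with DdBIC, at 169.5, 176 and 178 under hemin, and at 169.4, 178 and 159 with the combination. The libraries that were high in CPM, Ctrl 2 and 3 and the combination 1 and 3, were not high in TPM. In these 4 libraries the HSF1 count per FPKM was 1.31 to 1.34 times that of the lowest library, against at most 1.06 times in the other 8. A spread of 1.34 or more between libraries occurred in 13.7% of the 10121 genes that exceeded 200 counts throughout, with a median spread of 1.09, and the gene length behind the FPKM of each library is not given in the sources used here. HSF1 passed the threshold in none of the 6 comparisons by edgeR, with an unadjusted p of 0.034 in the interaction and 0.046 for the combination against hemin, by DESeq2 or by limma on log2 TPM. The sign of all 6 HSF1 differences was opposite in TPM, with DdBIC against Ctrl at -0.11 from counts (edgeR adjusted p = 0.39) and 0.14 from TPM (limma adjusted p = 0.059). From counts that HSF1 difference was -0.21 without Ctrl 1 (edgeR adjusted p = 0.052), -0.052 without Ctrl 2 and -0.062 without Ctrl 3.

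**Figure D3:**
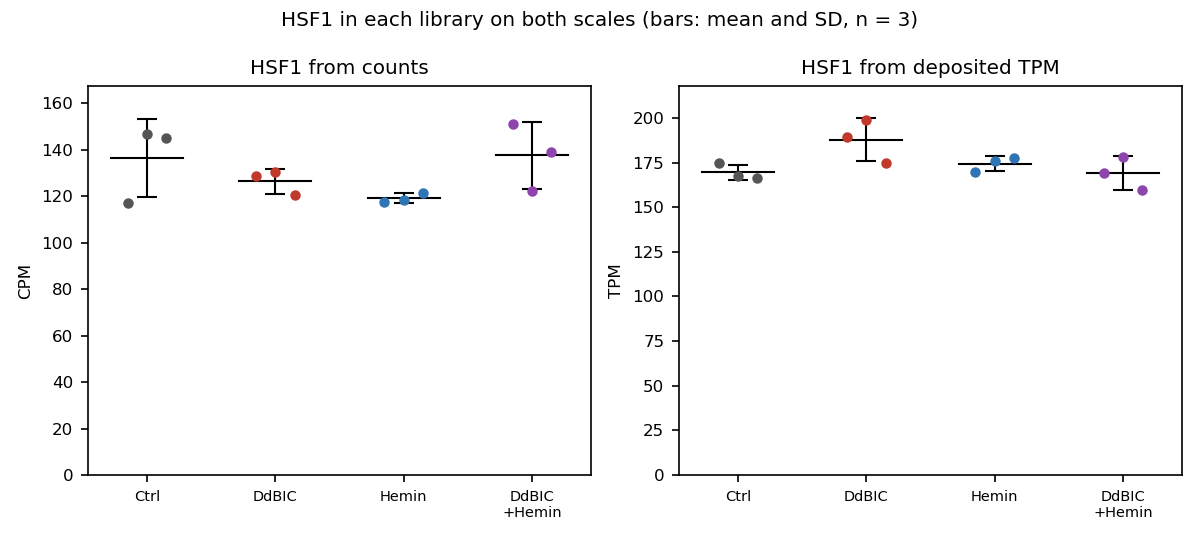
HSF1 in each library from the counts (left, CPM) and from the deposited TPM (right), by group on the x axes, with bars for the mean and SD of 3. Ctrl 2 and 3 stand at 147 and 145 CPM above Ctrl 1 at 117 CPM, while in TPM the 3 Ctrl libraries lie between 167 and 175.

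Levels per unit of transcript length were compared between genes on the deposited TPM. In Ctrl the order was HSPA8 (3360.15 ± 39.0 TPM, SD, n = 3), HSP90AB1 (2305 ± 10.9), HSP90AA1 (1941 ± 19.3), HSPB1 (522 ± 19.2), DNAJB1 (202 ± 8.08), HSPA1A (196 ± 4.89), HSPA1B (185 ± 1.91), HSPH1 (173 ± 8.93), HSF1 (169 ± 4.43) and BAG3 (159 ± 4.63). Neighbours in that order whose libraries overlapped were DNAJB1 with HSPA1A and HSPH1 with HSF1. With DdBIC, DNAJB1 reached 396 ± 42.7 TPM, HSPA1A 274 ± 22.9 and HSPA1B 258 ± 21.1, and DNAJB1 stayed below HSPB1 at 526 ± 36.5. The summed TPM of the 3 HSP70 genes was 0.872 to 0.895 times that of the HSP90 pair in Ctrl, 1.13 to 1.24 times with DdBIC, 0.926 to 0.966 times under hemin and 1.02 to 1.15 times with the combination. The ratio did not overlap between Ctrl, hemin and the DdBIC groups, while the latter overlapped each other. DNAJB1 amounted to 5.24 to 5.58 TPM per 100 TPM of HSP70 in Ctrl, 8.19 to 9.70 with DdBIC, 5.17 to 6.08 under hemin and 4.52 to 5.07 with the combination, and the combination lay below Ctrl in this measure. All 10 genes together summed to 9214 ± 63.1 TPM in Ctrl, 9539 ± 94.9 with DdBIC, 9440.5 ± 148 under hemin and 10312 ± 324 with the combination.

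**Figure D4:**
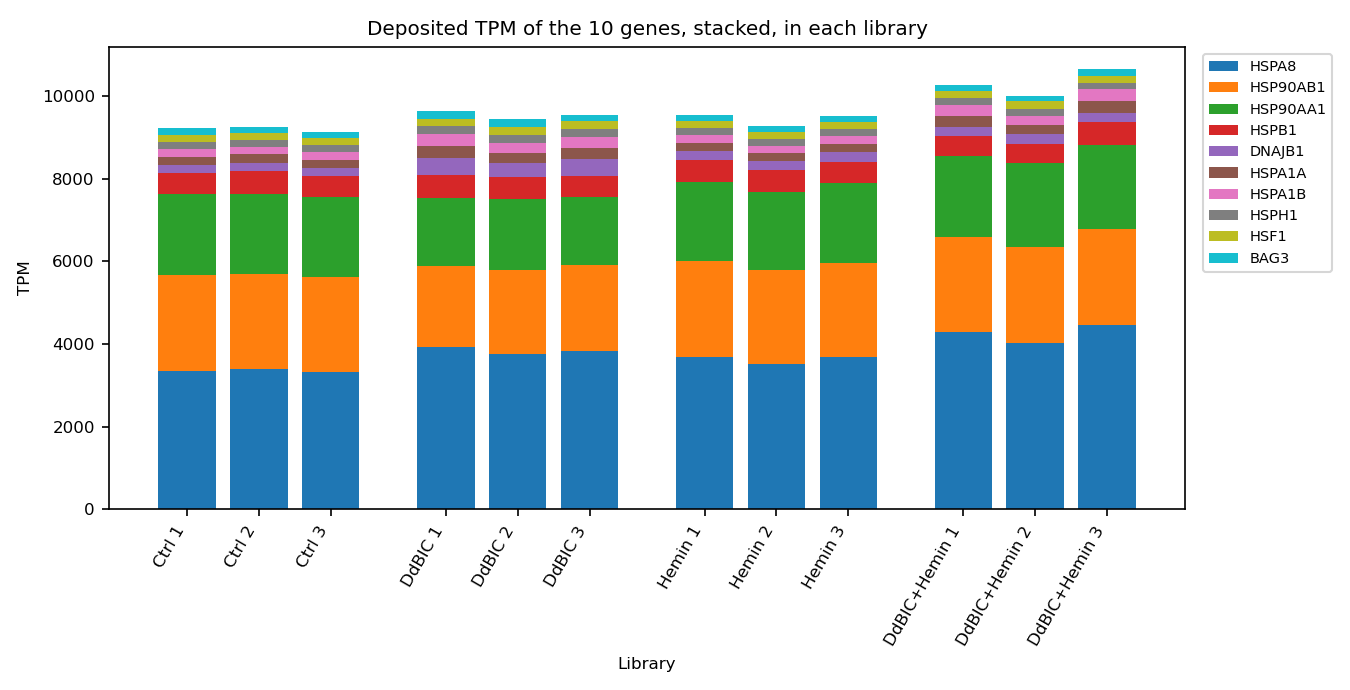
Deposited TPM (y axis, from 0) of the 10 genes stacked in each of the 12 libraries (x axis). HSPA8, HSP90AB1 and HSP90AA1 make up most of each bar, and the bars of the combination, at 10016 to 10659 TPM, are the tallest.

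The genes closest to DNAJB1 in pattern, by the root mean square difference of log2 CPM from the Ctrl mean over the 9 treated libraries, were CYP27B1 (0.064), HIST1H1C (0.089) and BTG2 (0.10), out of 10677 genes with at least 5 CPM. CYP27B1, which encodes the vitamin D hydroxylase, differed by 0.95 for DdBIC against Ctrl and by -0.75 for the combination against DdBIC on the log2 scale. Of the other 9 members, HSPA1B was nearest to DNAJB1, at place 756, with a difference of 0.36. MAP1B, SYT11 and TMEM209 were closest to HSPA8 (0.050 to 0.056), and UBALD2, KIAA1217 and NACAD were closest to BAG3 (0.067 to 0.069).

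Other chaperone genes were followed in 7 lists, of which 55 genes were tested. With DdBIC 9 of the 55 were higher and 16 lower, where 37.2% of all genes tested were called, 20.0% higher and 17.2% lower, and limma on TPM called 17 in all, where it called 32.0% of all genes. Of 14 other cytosolic HSP70 and J-domain genes, 3 rose and 1 fell with DdBIC, with DNAJB4, a J-domain gene, at 0.55 on the log2 scale (edgeR adjusted p = 2.1e-04) and HSPA4, an HSP110 relative, at -0.080 (edgeR adjusted p = 0.016). HSPA6, a strictly inducible HSP70 gene named after its values were seen, was at 0.98 to 1.02 CPM in Ctrl and 0.76 to 1.42 CPM with DdBIC, and the groups overlapped. Of 8 HSP70 co-chaperones, 2 rose and 3 fell, with BAG5 at 0.28 and BAG2 at -0.25. Of 10 HSP90 co-chaperones, 2 rose and 2 fell, with CHORDC1 at 0.29 and UNC45A at -0.22. In the chaperonin TRiC, the ring complex that folds actin and tubulin, 6 of 8 subunit genes fell with DdBIC and 0 rose, with a median of -0.16 and CCT7 at -0.25 (edgeR adjusted p = 6.2e-06). For the combination against DdBIC, 16 of the 55 were higher and 7 lower, where 31.9% of all genes were called, 13.5% higher and 18.4% lower. Adding hemin raised 7 of the 8 TRiC genes, with a median of 0.20 and CCT5 at 0.35 (edgeR adjusted p = 1.2e-04), and the interaction was called upward for 5 of them, where 6.40% of all genes were called upward by TMM scaling (914 genes, and 1497 with upper-quartile normalization). Of the 14 HSP70 and J-domain genes, 0 were higher and 2 lower in that comparison, with DNAJB4 at -0.33. HSP70 co-chaperones had 2 higher and 1 lower, with ST13 at 0.21 and BAG4 at -0.19. HSP90 co-chaperones had 3 and 1, with UNC45A at 0.16 and CHORDC1 at -0.26. Heat shock factors and binding proteins had 1 and 1, with HSBP1 at 0.17 and HSF4 at -0.31, and organelle counterparts had 3 and 2, with TRAP1 at 0.25 and HSPA5 at -1.23. By limma on TPM the TRiC calls were 4 with DdBIC, 5 for the combination against DdBIC and 2 in the interaction, where limma called 32.0%, 25.9% and 12.3% of all genes.

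With the combination against hemin, 1 of the 55 genes tested in these lists was called, DNAJB4 at 0.35 (edgeR adjusted p = 0.019), where 6.80% of all genes were called, and DESeq2 called 3 and limma on TPM 2, where they called 8.76% and 4.69%. Of 5 small heat shock protein genes tested, 0 were called in any comparison by edgeR, DESeq2 or limma on TPM. By edgeR 0 had an unadjusted p under 0.05. Their mean Ctrl levels were low, at 5.92 CPM for HSPB8, 1.36 for HSPB6, 0.74 for HSPB9, 0.46 for HSPB3 and 0.29 for CRYAB. For DdBIC against Ctrl the SE was 0.084 for HSPB8 and 0.31 to 0.72 for the others, too wide to show small changes in those. Of 4 heat shock factors and binding proteins tested, 1 fell with DdBIC, HSBP1 at -0.22 (edgeR adjusted p = 0.0052). Of the 6 organelle counterparts, 2 rose and 3 fell with DdBIC. In the comparison of DdBIC with Ctrl used for both lists, 37.2% of all genes tested were called, 20.0% higher and 17.2% lower. HSPA5, the HSP70 of the endoplasmic reticulum, rose from 926 ± 8.16 CPM in Ctrl to 2803 ± 315 CPM with DdBIC (SD, n = 3), by 1.60 on the log2 scale (edgeR adjusted p = 1.6e-08), and TRAP1, the mitochondrial HSP90, fell by 0.26 (edgeR adjusted p = 0.0015). With both agents HSPA5 was at 1195 ± 28.4 CPM, a difference of -1.23 from DdBIC alone (edgeR adjusted p = 1.7e-07) and of 0.37 from Ctrl (edgeR adjusted p = 0.0030). For the combination against Ctrl, 2 of the 55 were higher and 2 lower, where 12.4% of all genes were called, 5.66% higher and 6.74% lower. The others called were DNAJA1 at 0.11, BAG2 at -0.31 and HSF4 at -0.50. Hemin alone gave 0 calls in the 7 lists by edgeR, DESeq2 or limma on TPM. Over all genes these methods called 4.06%, 6.17% and 2.25%. By edgeR 7 of the listed genes had an unadjusted p under 0.05, and the share of all genes under that level was not computed.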

How the data were processed

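RNA of 12 A375 libraries was sequenced by the study. Per the submitters' processing notes, Trim Galore, Subread and featureCounts were used with hg38, and no version, read assignment or strand setting is given in the sources used here. The authors deposited a count of reads per gene without normalization, and TPM and FPKM values that they scaled by gene length. Every column of the table was mapped to a library. Counts were normalized by TMM and tested with edgeR 4.0.16 in R 4.3.3 (filterByExpr, robust quasi-likelihood fit, 1 mean per group, 8 residual degrees of freedom) in 6 comparisons. A standard error (SE) is the size of the log2 fold change divided by the square root of F, and a call is an adjusted p below 0.05. Depth was 37951275 to 44358912 counts, and it covers counting error only. TPM was used for levels between genes and, as log2(TPM + 1), in limma 3.58.1. FPKM was used only to read the length behind a count. Only the edgeR fit was tested on simulated counts, for DdBIC against Ctrl and for hemin against Ctrl.

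The members and the lists were chosen with earlier results of these data known. In each list, the called gene with the largest rise and with the largest fall was named, every gene called in the interaction was named after its value was seen, and the 3 nearest patterns were named for DNAJB1, BAG3 and HSPA8. The alternatives were DESeq2 1.42.0, upper-quartile factors, library size only, no filter, at least 10 counts in every library, fits of the groups compared only, a replicate block, TPM, HSPA1A and HSPA1B summed, a minimum log2 change of 1 in either direction, and leaving out each library. Protein sequences were not used here.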

Additional observations from a re-analysis of the deposited data

Results flagged for a closer look

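The effect of DdBIC differed with and without hemin, by edgeR's interaction test, for 3 of the 10 genes and for 14 of the 55 other chaperone genes tested, 10 upward and 4 downward, where 16.6% of all genes were called in that test, 6.40% upward and 10.2% downward. By limma on TPM 8 of the 55 were called, where it called 12.3% of all genes. DNAJB1 had an interaction of -1.0035 on the log2 scale, from 0.98 without hemin to -0.021 with it. HSP90AA1 had 0.31, from -0.22 to 0.094, and HSP90AB1 had 0.22, from -0.18 to 0.037. Among the other chaperone genes, DNAJA2, a J-domain gene, had -0.18 and BAG5, an HSP70 exchange factor, had -0.34. STUB1, the ubiquitin ligase CHIP that works with HSP70, had 0.23, and ST13, an HSP70 co-chaperone, had 0.22. By limma on TPM 0 of the 8 HSP70 co-chaperones, BAG5, STUB1 and ST13 among them, were called in the interaction. The HSP90 co-chaperones UNC45A and FKBP4 had 0.25 and 0.22. Of TRiC, CCT5 had 0.37, CCT7 0.27, CCT8 0.25, CCT3 0.19 and TCP1 0.18. TRAP1 had 0.33, and HSP90B1, the HSP90 of the endoplasmic reticulum, had -0.51, from 0.56 without hemin to 0.044 with it. HSPA5 had -1.42, from 1.60 without hemin to 0.18 with it. HMOX1, used to check the hemin labels, had 1.57, from -0.16 without hemin to 1.41 with it.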

How the results depend on the processing

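Of the log2 fold changes of the 10 genes under the alternatives other than a minimum log2 change, 1092 kept direction and side of the threshold, 42 lost the call, 11 gained one and 57 changed sign; the sign changes were in values that were not called, and their cause was not tested. With a minimum log2 change of 1 in either direction, members called were 0 in each of DdBIC against Ctrl, the combination against DdBIC, against hemin and against Ctrl, and 1 in the interaction, and the counts over all genes were 502 for DdBIC against Ctrl, 16 for hemin against Ctrl, 323 for the combination against DdBIC, 46 against hemin, 82 against Ctrl and 278 for the interaction. For hemin against Ctrl, members called were 1 with DESeq2, 2 with only the groups compared and 0 to 1 leaving out a library, and all genes called were 881 with DESeq2, 322 with limma on TPM and 272 to 623 leaving out a library, against 580. For the combination against hemin, members called were 1 with only the groups compared and 2 to 4 leaving out a library (2 without Hemin 2 or DdBIC+Hemin 1), and all genes called were 569 and 612 to 934, against 971.

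HSF1 on TPM gave 0.14 for DdBIC against Ctrl, 0.041 for hemin, -0.15, -0.046 and -0.0050 for the combination against DdBIC, hemin and Ctrl, and -0.19 for the interaction; without Ctrl 1 the HSF1 interaction from counts was 0.42 and called (edgeR adjusted p = 0.019). With library size only, HSF1 in the combination against Ctrl was -0.010 and HSPB1 with DdBIC was -0.018. With upper-quartile normalization HSPB1 with DdBIC was -0.058 and HSP90AA1 with hemin 0.0026; the combination against DdBIC gave 0.018 for HSPA1A, 0.049 for HSPA1B and 0.026 for HSPB1, and the interaction gave 0.018, 0.0067 and 0.0044 for these and 0.050 for HSPH1. HSPH1 in the interaction was 0.0070 with DESeq2, HSPA1A with hemin was 0.012 when summed with HSPA1B, HSP90AB1 with hemin was -0.0082 on TPM, and HSPA1B in the combination against DdBIC was 0.0037 with only those groups.

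Leaving out a library gave ranges that crossed 0 for DdBIC against Ctrl in HSPB1 (-0.044 to 0.056). For hemin against Ctrl they did so in HSPA1A (-0.033 to 0.032), HSPB1 (-0.011 to 0.047) and HSP90AA1 (-0.0091 to 6.1e-05). The combination crossed 0 against DdBIC in HSPA1A (-0.13 to 0.052), HSPA1B (-0.094 to 0.079) and HSPB1 (-0.093 to 0.012), against hemin in DNAJB1 (-0.081 to 0.021), and against Ctrl in HSPH1 (-0.012 to 0.0022), HSPB1 (-0.090 to 0.0027), BAG3 (-0.12 to 0.026) and HSF1 (-0.086 to 0.091). The interaction crossed 0 in HSPA1A (-0.12 to 0.061), HSPA1B (-0.13 to 0.045) and HSPH1 (-0.034 to 0.029).

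Same-numbered libraries did not deviate together (18 pairs, r of -0.046 to 0.081). With the replicate number as a block, members called were 7 for DdBIC against Ctrl, 0 for hemin, 5, 3 and 3 for the combination against DdBIC, hemin and Ctrl, and 3 in the interaction, and all genes called were 5084 for DdBIC against Ctrl, 408 for hemin, 4262, 776 and 1500 for the combination against DdBIC, hemin and Ctrl, and 2078 in the interaction.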
